A study of Mus musculus with 20 samples.

Results

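The 31 genes described here encode receptors for serotonin (12 genes), noradrenaline and adrenaline (8), acetylcholine of the muscarinic kind (5), dopamine (3) and histamine (3). They were chosen by symbol as members of these receptor families, and all 31 were found among the 21631 protein-coding genes on chromosomes 1 to 19 and X of the RefSeq GRCm38.p6 gene table. CUT&RUN, in which an antibody directs a nuclease to cut out the DNA around its target inside intact nuclei, had been run on nuclei of excitatory and inhibitory neurons sorted by flow cytometry from whole brain of mice aged 8 weeks. All mice carried the genotype Sun1 f/f, Emx1Cre (+), so both neuron types share it. Sun1 is a nuclear membrane protein, and Emx1 is active in progenitors of forebrain excitatory neurons. How the sort told the types apart is not stated in the sources used here. There were 5 antibodies: H3K4me3, H3K4me1, H3K27ac and H3K27me3, which recognise histone marks, and EGR1, which recognises a transcription factor induced by neuronal activity. Each was used in 2 libraries of excitatory and 2 of inhibitory nuclei, 20 libraries in 10 groups. Peak names inside the EGR1 lists carry replicate numbers 3 and 4 where the labels say 1 and 2, and the labels were followed. Nothing in the labels says that replicates came from separate mice, so p-values reflect no more than how far these libraries differ, which may be technical.

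Monoamine, histamine and muscarinic receptors are G protein-coupled receptors that tune the excitability of neurons rather than carry fast signals. Receptors coupled to Gq raise intracellular calcium, those coupled to Gs raise cyclic AMP, and those coupled to Gi lower it. In the forebrain, serotonin, noradrenaline, dopamine, histamine and acetylcholine arrive mostly from small groups of neurons with long axons, and the receptor genes a neuron transcribes determine how it responds. H3K4me3 marks promoters, H3K4me1 and H3K27ac mark enhancers and active regulatory DNA, and H3K27me3 is laid down by Polycomb repressors. Promoters that carry H3K4me3 and H3K27me3 together are often called bivalent and are typical of developmental genes with CpG-rich promoters.

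RefSeq promoter entries existed for 25 of the 31 genes. The 250 bases before the annotated start of 4 of them are printed here because they differ widely in CpG content and because these genes carry results below: Htr1f for H3K4me3, Htr2a and Hrh1 for H3K4me1, and Drd5 for its broad H3K27me3. Each is given 5′ to 3′ on the gene's own strand (GRCm38.p6), with every CpG in capitals.
Htr1f, chr16:65105785-65106034, minus strand: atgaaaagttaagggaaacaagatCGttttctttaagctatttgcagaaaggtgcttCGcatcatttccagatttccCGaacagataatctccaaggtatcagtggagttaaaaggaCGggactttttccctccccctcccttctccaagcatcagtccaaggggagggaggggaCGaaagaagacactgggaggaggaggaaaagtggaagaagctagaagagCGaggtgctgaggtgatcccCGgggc
Htr2a, chr14:74640624-74640873, plus strand: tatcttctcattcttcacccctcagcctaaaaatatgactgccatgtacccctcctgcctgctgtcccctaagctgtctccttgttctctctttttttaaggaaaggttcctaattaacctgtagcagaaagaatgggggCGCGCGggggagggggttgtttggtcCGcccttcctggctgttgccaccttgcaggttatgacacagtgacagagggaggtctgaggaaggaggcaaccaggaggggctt
Hrh1, chr6:114397686-114397935, plus strand: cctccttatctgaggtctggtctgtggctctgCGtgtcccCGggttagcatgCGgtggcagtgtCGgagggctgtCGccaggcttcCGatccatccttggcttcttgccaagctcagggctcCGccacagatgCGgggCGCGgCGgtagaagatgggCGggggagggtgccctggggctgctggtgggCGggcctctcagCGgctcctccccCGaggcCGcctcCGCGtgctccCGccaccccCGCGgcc
Drd5, chr5:38319259-38319508, plus strand: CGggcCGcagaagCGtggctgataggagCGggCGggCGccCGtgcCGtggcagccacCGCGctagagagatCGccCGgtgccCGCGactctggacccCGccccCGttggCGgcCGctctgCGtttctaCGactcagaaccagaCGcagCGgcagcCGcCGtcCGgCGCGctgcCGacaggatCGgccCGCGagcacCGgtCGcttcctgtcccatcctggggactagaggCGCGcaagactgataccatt
They hold 7, 4, 21 and 35 CpGs in that order. The observed over expected CpG ratio was taken over the 300-base entries (250 bases before the start and 50 after). Only the entry of the outermost annotated start of each gene was counted, although some genes have further starts. The ratio was at least 0.6 in 12 of the 25 receptor genes (48%), against 49% of 17274 genes. By this count the receptor promoters were not richer in CpG than promoters at large.

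Of each deposited peak list, the share of a gene's window that lay under peaks was taken as its level, in percent. For H3K4me3 and EGR1 the window was the 2 kb before and after either gene end. For H3K4me1, H3K27ac and H3K27me3 it was the gene with 5 kb on each side. Such a level measures how far called peaks extend, not how high they are. Levels are given in the order excitatory replicate 1, excitatory replicate 2, then inhibitory replicate 1, inhibitory replicate 2. Differences are excitatory minus inhibitory after quantile normalization over the 4 libraries of an antibody, in percentage points, with limma's standard error. A gene was called at a Benjamini-Hochberg adjusted p under 0.05 over all genes tested.

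Lists held from 49899 peaks (EGR1) to 321846 peaks (H3K4me1). The quality of the lists differed by antibody. Within the receptor windows, 88.9% to 98.6% of EGR1 peaks had a q under 0.05, but none of the H3K27me3 peaks did in any library. For H3K4me1 the shares were 0% and 0.449% in excitatory and 2.27% and 10.8% in inhibitory libraries, and for H3K27ac 2.21% and 3.7% against 30.4% and 44.7%. H3K27me3 in both types, and H3K4me1 and H3K27ac in the excitatory libraries, thus rest almost wholly on weak peaks. H3K4me1 in the inhibitory libraries also rests mostly on weak peaks. The labels were checked against marker genes, and part of the data goes against them. EGR1 followed the labels at most markers: over the excitatory forebrain marker list its mean level was 9.25%, 9.49%, 2.38% and 4.30%, and over the inhibitory list 1.21%, 0.83%, 4.47% and 4.36%. After normalization, 6 of 9 tested excitatory markers were above 0 and 3 below, and all 6 tested inhibitory markers were below 0. H3K27ac was higher in the libraries labelled excitatory over both lists: 6.78%, 8.65%, 4.99% and 6.19% over the excitatory list (8 of 10 differences above 0) and 4.84%, 5.99%, 0.39% and 0.48% over the inhibitory list (8 of 8 tested). For H3K4me1, 9 of 10 excitatory and 6 of 10 inhibitory markers had a difference above 0, and Gad1, an enzyme of GABA synthesis, was the 1 marker of either list called, higher in excitatory libraries. For H3K4me3, 4 of 9 tested excitatory markers were above 0 and 5 below, with Tbr1 the 1 called, higher in inhibitory libraries. Of the inhibitory markers, 3 of 9 tested were above 0 and 6 below, which is the direction of their label. For the same mark, 3 of 6 cerebellar granule neuron markers (Gabra6, Zic1 and Barhl1) were also called higher in the inhibitory libraries. Of these 6 markers, 2 had a difference above 0 and 4 below. The other antibodies differed at this list too. H3K27ac was below 0 at all 6 and H3K4me1 at 5 of 6, with Gabra6 called higher in the inhibitory libraries. EGR1 was below 0 at 3 of 5 tested, with a median of -8.48 points. H3K27me3 was above 0 at 4 of 5 tested, with a median of 28.21 points. Its mean levels over the list were 23.6%, 23.9%, 5.44% and 7.13%. For H3K27me3, 5 of 10 excitatory and 6 of 10 inhibitory markers were above 0. "Excitatory" and "inhibitory" below therefore name the libraries by label. The part of these differences in the results was not tested, and more cells with a mark and more signal per cell cannot be told apart.

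H3K4me3 at the gene ends was higher in the excitatory libraries for 5 receptor genes: the serotonin receptors Htr1f and Htr5a, the alpha-1 adrenergic receptors Adra1a and Adra1d, and the muscarinic receptor Chrm1. These were 5 of the 29 tested, and none was called higher in the inhibitory libraries. Over all 15685 genes tested, 3.02% were called in either direction, 1.8% higher in excitatory and 1.22% in inhibitory libraries. The difference was above 0 at 26 of the 29 receptor genes and 48.5% of all genes, with a median of 4.58 points, whereas the median over all genes was -0.12.

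Adra1a (chr14:66635251-66771240), a Gq-coupled noradrenaline receptor, had levels of 24.0%, 25.8%, 2.299% and 0%. Both excitatory libraries held a peak of 1923 or 2061 bp that covered one gene end, where inhibitory replicate 1 had a peak of 184 bp and inhibitory replicate 2 none. The difference was 23.72 points (SE 2.09, adjusted p 0.012). Htr1f (chr16:64924729-65105784), a Gi-coupled serotonin receptor, showed the same form, with 17.9%, 26.0%, 2.299% and 0%. The excitatory peaks, of 1434 and 1899 bp, lay at its start, whose sequence is printed above and where inhibitory replicate 1 again had 184 bp and inhibitory replicate 2 none. The difference was 20.77 points (SE 2.61, adjusted p 0.018).

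At Htr5a, Adra1d and Chrm1 both types had H3K4me3, and its extent differed. Htr5a (chr5:27841716-27855086), a Gi-coupled serotonin receptor of forebrain neurons, had 31.5%, 27.2%, 12.4% and 15.2% (difference 15.25, SE 2.86, adjusted p 0.045). Its strongest peak lay over the start in all 4 libraries and was 2612 and 3321 bp wide in excitatory against 993 and 1216 bp in inhibitory libraries. The authors' fold enrichment of that peak went the other way, 3.84 and 3.26 in excitatory against 7.13 and 8.96 in inhibitory libraries. The excitatory peaks at Htr5a were thus broader and lower. Chrm1 (chr19:8664005-8683606), the main Gq-coupled muscarinic receptor of cortical and hippocampal pyramidal cells, had 21.1%, 32.1%, 8.94% and 9.67% (difference 16.70, SE 3.19, adjusted p 0.046). Its strongest H3K4me3 peaks lay inside the gene in the excitatory libraries (chr19:8664069-8665506 and chr19:8665270-8666993) and outside it in the inhibitory ones (chr19:8661782-8662535 and chr19:8661573-8662778). Adra1d (chr2:131545357-131562497) had 38.0%, 37.3%, 23.7% and 20.6% (difference 15.52, SE 2.51, adjusted p 0.033). A peak of 1372 and 1179 bp inside 1 end of it (chr2:131560106-131561477 and chr2:131559917-131561095) was present in both excitatory libraries and in neither inhibitory one. In turn, a region before the other end, beyond the window (chr2:131541580-131541947 and chr2:131541701-131542214), had a peak in the inhibitory libraries only. The strongest inhibitory peaks had -log10 p of 6.04 and 18.2.

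Among the 26 members not called or not tested, the lowest differences were those of Adra2c at -3.32, Drd4 at -2.001 and Adra1b at -0.33 (adjusted p 0.60, 0.85 and 0.96). Adra2c, a Gi-coupled adrenergic receptor, had 18.4%, 26.95%, 24.7% and 26.5%. Drd4, a Gi-coupled dopamine receptor, had 2.51%, 15.3%, 11.2% and 8.10%. In both, the excitatory replicates lay further apart than the types. For Adra1b the values were 4.74%, 2.29%, 2.44% and 2.249%. Its H3K4me3 lay elsewhere: within 2 kb of its second annotated start (position 43836489 on chromosome 11) the levels were 39.2%, 43.6%, 19.8% and 15.8%. The remaining 2 genes were not tested, because fewer than 2 libraries had a peak in the window. Htr2b, a Gq-coupled receptor that lies within Psmd1, had none, and Drd3, a Gi-coupled dopamine receptor, had 0%, 9.46%, 0% and 0%, its strongest H3K4me3 peak lying 39630 to 39843 bases inside its listed start in all 4 libraries.

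In all, both excitatory libraries were above both inhibitory ones at 19 of the 29 genes, and the opposite order was seen at none; over all genes tested these orders held for 25.6% and 20.3%. A peak was present in both excitatory libraries at 29 of the 31 genes and in both inhibitory ones at 25, which were also the 25 with a peak in all 4; over all genes these shares were 66.3%, 65.5% and 62.4%. None had a peak in both inhibitory and neither excitatory library, against 0.666% of all genes. By class, the 19 comprised 5 of 6 Gi-coupled, 1 of 2 tested Gq-coupled and 3 of 3 Gs-coupled serotonin receptors, 2 of 3 alpha-1, 0 of 3 alpha-2 and 1 of 2 beta receptors, 4 of 5 muscarinic, 0 of 2 tested dopamine and 3 of 3 histamine receptors. The 5 calls held when excitatory replicate 1 was left out, while without excitatory replicate 2, inhibitory replicate 1 or inhibitory replicate 2 no receptor gene and no gene at all was called by limma. With the first excitatory library left out 4.76% of all genes were called. With the gene and its flanks as the window only Htr5a was called (0.621% of all genes), and around annotated starts only Htr1f and Htr5a (4.55%), where Adra1a, Adra1d and Chrm1 have no entry. Without quantile normalization none was called either, with the median difference at 5.02 points.

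**Figure D1:**
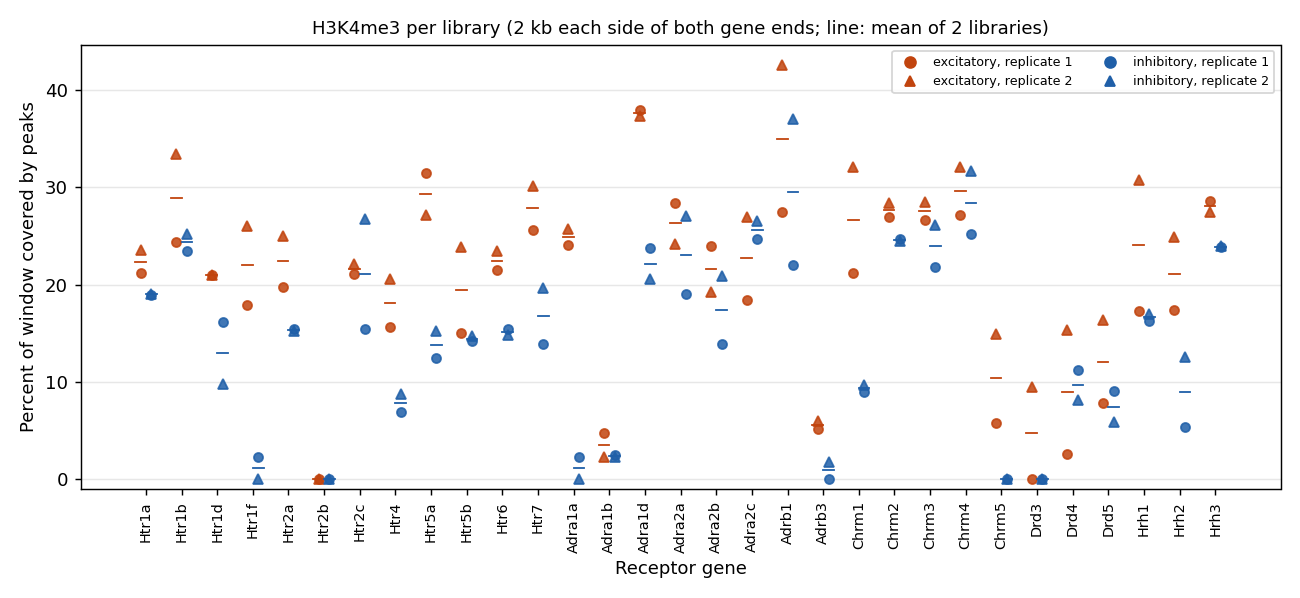
Percent of the window of 2 kb before and after either gene end covered by H3K4me3 peaks (y axis) for each of the 31 receptor genes (x axis). Points are libraries, 2 per type, and short lines are the mean of each type. Htr1f and Adra1a were near 0 in the inhibitory libraries (2.299% or less), while Adra2c and Drd4 overlapped.

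H3K27me3 leaned the other way. No receptor gene was called among the 30 tested, nor was any of all 15438 genes (0%). At an unadjusted p under 0.05 there were 8 receptor genes, against 28.9% of all genes. Of the 30 differences, 5 were above 0, against 50.7% over all genes, and 25 were below 0, with a median of -3.32 points against 0.05 over all genes. The number above 0 was 12 without inhibitory replicate 2, 9 without excitatory replicate 1, 7 without either of the other libraries, and 8 with equal peak numbers or with the gene-end window. Both inhibitory libraries were above both excitatory ones at 20 receptor genes, but this order held for 48.7% of all genes tested. The inhibitory lists covered 277 and 243 Mb and the excitatory ones 182 and 216 Mb, and the part of that in these counts was not tested.

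Htr5a had the lowest difference. Its levels were 0.24%, 0%, 27.7% and 30.2% (difference -26.70, SE 2.57, adjusted p 0.056). The inhibitory peak, 3575 and 3170 bp wide, covered the start (chr5:27840877-27844451 and chr5:27841191-27844360), where the excitatory H3K4me3 peak was broad. Chrm1 followed with 1.24%, 8.25%, 33.7% and 23.5% (difference -21.00, SE 4.70, adjusted p 0.075). Hrh2 (chr13:54191970-54236182), the Gs-coupled histamine receptor, had 2.96%, 3.56%, 28.3% and 24.4% (difference -19.86, SE 2.56, adjusted p 0.056). In these 3 genes the types were far apart, although none passed the threshold. The next by size, named after their values were seen, were Hrh1 at -16.95, Htr1f at -12.37 and Chrm2 at -10.50.

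At the other end, Drd3 had 20.8%, 23.2%, 9.86% and 16.9% (difference 12.48, SE 3.59, adjusted p 0.11). It was the only receptor gene with both excitatory libraries above both inhibitory ones, an order that held for 14.2% of all genes tested. Adra2a, a Gi-coupled adrenergic receptor, had 35.2%, 26.4%, 29.3% and 23.5% (difference 7.64, adjusted p 0.39). Drd5, a Gs-coupled dopamine receptor, had 35.7%, 31.7%, 35.4% and 26.2% (difference 5.89, adjusted p 0.49). At Drd5 the H3K27me3 peaks of the types lay at different places. Within 2 kb of the start the levels were 32.1% and 39.9% in excitatory against 69.9% and 56.2% in inhibitory libraries. The strongest excitatory peaks of the whole window lay before the start, centred -2856 and -3283 bases from it, and the strongest inhibitory ones over it. As given above, none of these peaks had a q under 0.05. By class, read after the values were seen and not tested, the 3 dopamine receptors among the members had differences above 0. Those of all 5 muscarinic and all 6 Gi-coupled serotonin receptors were below 0. Of the 3, Drd4 was at 2.36 (SE 3.19), and Drd5 turned to -5.60 with the gene-end window.

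**Figure D2:**
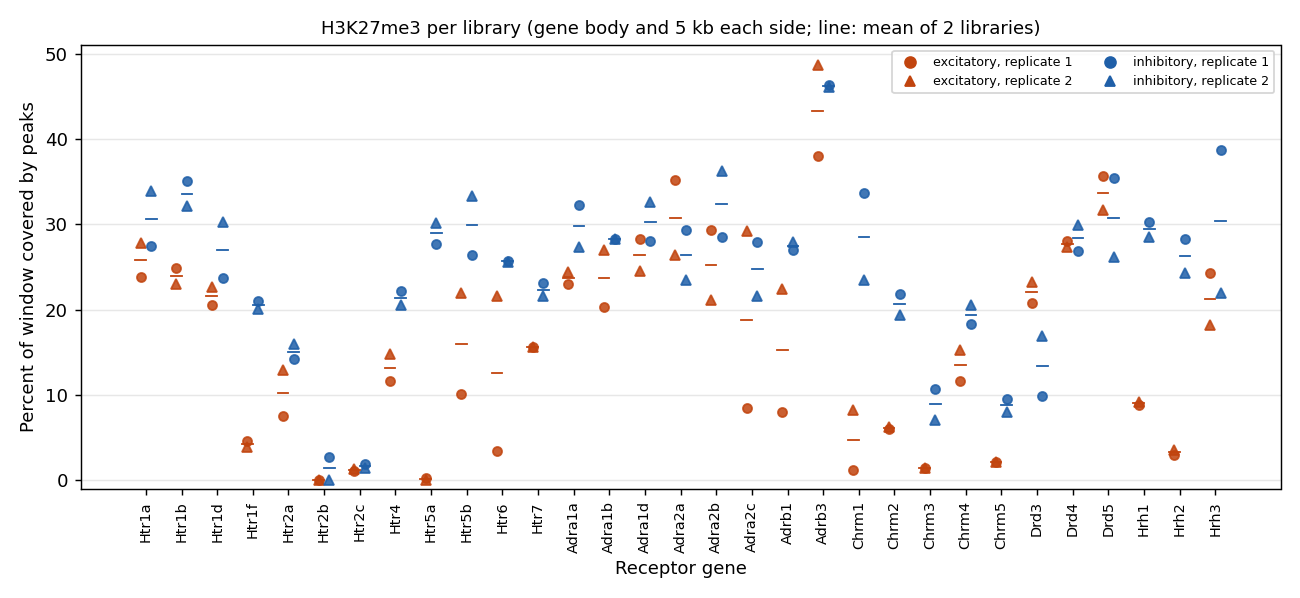
Percent of the gene and 5 kb on each side covered by H3K27me3 peaks (y axis) for each receptor gene (x axis). Points are libraries, 2 per type, and short lines are the mean of each type. Htr5a, Hrh2 and Chrm1 were below 9% in the excitatory and above 23% in the inhibitory libraries, while Drd3 had the opposite order.

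Most receptor genes had peaks of both H3K4me3 and H3K27me3 near the same gene end, in both types. The peaks of the 2 marks did not have to overlap. Whether both marks lie on the same allele or in the same cell was not measured. Counting a mark as present when both libraries of a type had a peak within 2 kb of an end, 26 of 31 (83.9%) had both at one end in the excitatory libraries, against 15.9% of all 21631 genes, and 25 of 31 (80.6%) in the inhibitory libraries, against 20.4%. In both types at once this held for 22 receptor genes (71%) and 11.6% of all genes. Around annotated starts alone, both marks were found at 20 of 25 genes in the excitatory and 21 of 25 in the inhibitory libraries, against 13.9% and 18% of 17274. Most of the H3K27me3 peaks were weak: requiring a -log10 p of at least 2 left 3 (2.79% of all genes) and 13 genes (5.41%). The 3 were Htr1b, Htr5b and Adra2b.

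The other 9 genes were in other states in 1 or both types. Htr5a had H3K4me3 alone in the excitatory and both marks in the inhibitory libraries. Hrh2 had both marks at one end in the inhibitory libraries, and in the excitatory ones H3K4me3 and H3K27me3 at different ends. Htr1f, Adra1a, Adrb3 and Chrm5 had both in the excitatory libraries and H3K27me3 alone in the inhibitory ones. Adra1b had both marks at one end in the inhibitory libraries, whereas its small H3K4me3 peaks in the excitatory libraries lay at different ends in the 2 replicates. Drd3 had H3K27me3 alone in both, and Htr2b had neither mark at its gene ends. No receptor gene had H3K4me3 alone in the inhibitory libraries, a state that 41.7% of all genes were in. At 15 of the 31 genes both inhibitory libraries were above both excitatory ones for H3K27me3 and below both for H3K4me3, against 9.54% of all genes. As a description, the 2 differences had a Pearson r of -0.47 over 29 receptor genes and -0.26 over 11362 genes, from the same sorted populations.

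**Figure D3:**
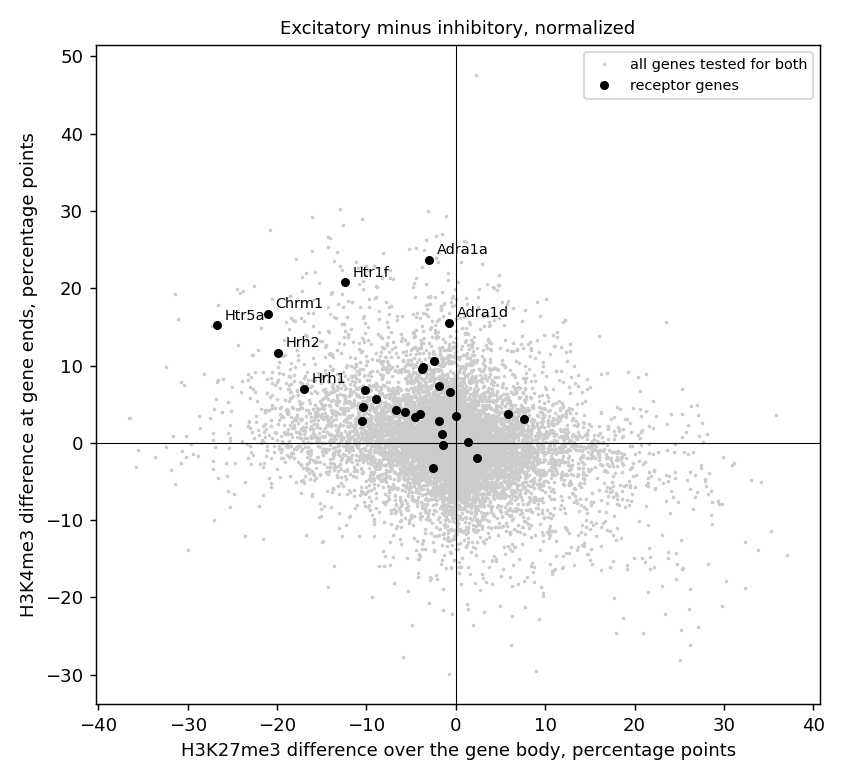
Difference between excitatory and inhibitory libraries in H3K27me3 over the gene (x axis) and in H3K4me3 at the gene ends (y axis), both in percentage points after normalization. Black points are the receptor genes tested for both and grey points all other genes. Htr5a, Chrm1 and Hrh2 lie at the upper left (-26.70 and 15.25 for Htr5a), and Adra1a and Htr1f at the top.

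H3K27ac peaks were present in both excitatory libraries at 29 of the 31 genes and in both inhibitory libraries at 17, against 72.7% and 67.2% of all genes. At 11 receptor genes both excitatory libraries and neither inhibitory library had a peak in the gene and its flanks, which is 35.5%, against 4.81% of all genes. These were Htr1a, Htr1b, Htr1f, Htr2a, Htr7, Adra1b, Adrb1, Adrb3, Chrm1, Drd5 and Hrh1. With the same number of strongest peaks from each library there were 8 (3.33% of all genes). None of the 31 showed the reverse, against 0.213% of all genes. The inhibitory neuron marker genes moved in the same direction, as given above, and the part of that in these counts was not tested.

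By limma, no receptor gene was called for H3K27ac, and neither was any of all 16654 genes tested (0%). An unadjusted p under 0.05 was reached by 21 of the 31 receptor genes, against 18.2% of all genes. The difference was above 0 at 27 receptor genes and 48.9% of all genes, with a median of 4.90 points against -0.08 over all genes. Both excitatory libraries were above both inhibitory ones at 23 receptor genes and below both at 1, against 24.9% and 26.2% of all genes. Chrm1 had the highest difference, with 9.996%, 9.24%, 0% and 0% (9.86 points, SE 1.65, adjusted p 0.14). Adrb1, a Gs-coupled noradrenaline receptor, had 6.59%, 10.6%, 0% and 0% (8.79 points, SE 1.48, adjusted p 0.14), with summits -545 and -546 bases from its start in the excitatory libraries, although the strongest peak of replicate 2 lay at 1222 bases. Htr1a, the Gi-coupled autoreceptor of serotonin neurons that is also found on forebrain targets, had 5.12%, 11.02%, 0% and 0% (8.20 points, SE 1.88, adjusted p 0.15). In all 3 the inhibitory libraries had no peak at all. Leaving out excitatory replicate 1 gave 13 called receptor genes (5.55% of all genes), leaving out excitatory replicate 2 gave 12 (5.4%), and leaving out an inhibitory one gave 0 (0%).

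Chrm4, the Gi-coupled muscarinic receptor of striatal neurons, was the exception. Its H3K27ac levels were 3.89%, 0%, 15.8% and 13.01%, a difference of -10.69 points (SE 2.40, adjusted p 0.15). It was the only receptor gene with both inhibitory libraries higher, an order that held for 26.2% of all genes tested. Its H3K4me1 had the same order, with 18.4%, 16.7%, 20.5% and 36.7% (difference -11.96, SE 5.19, adjusted p 0.22). The strongest inhibitory H3K27ac peaks (chr2:91933353-91934435 and chr2:91933035-91934051) lay 11441 and 11031 bases from the start, beyond the end of Chrm4 at position 91929835 and inside Dgkz (chr2:91932822-91976443). Peaks inside Chrm4 itself, 6371 and 6651 bases from its start, were present in both inhibitory libraries, with fold enrichments of 2.98 and 2.60. Which gene these belong to was not tested. The other low differences were those of Adra2c, with 14.4%, 5.79%, 15.8% and 13.6% (-3.16, adjusted p 0.75), and Drd3, with 1.07%, 6.34%, 3.92% and 2.98% (-1.25, adjusted p 0.66). In both of these the types overlapped.

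H3K4me1 peaks were present at all 31 genes in every library, against 79.9% of all genes in both excitatory, 75.7% in both inhibitory and 74% in all 4 libraries. H3K4me1 was higher in the excitatory libraries at 7 of them, namely all 3 histamine receptors, the serotonin receptors Htr2a, Htr2b and Htr4, and the muscarinic receptor Chrm2. None was called higher in the inhibitory libraries, and over all 18017 genes tested 4.06% were called, 2.53% higher in excitatory and 1.53% in inhibitory libraries. The difference was above 0 at 26 of 31 and at 47.3% of all genes, with a median of 5.61 points against -0.34 over all genes.

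Hrh3 (chr2:180099465-180104484), the Gi-coupled receptor that limits histamine release, had 33.5%, 37.2%, 19.2% and 10.9% (difference 19.27, SE 3.45, adjusted p 0.047). Hrh1 (chr6:114397936-114483298), the Gq-coupled receptor targeted by sedating antihistamines, had 19.6%, 24.7%, 5.07% and 3.39% (difference 15.28, SE 2.23, adjusted p 0.041). Hrh2 had 25.2%, 26.5%, 9.87% and 7.93% (difference 15.14, SE 2.68, adjusted p 0.046). The types did not overlap at any of the 3 histamine receptors. Htr2a (chr14:74640874-74706859), the Gq-coupled receptor through which classic hallucinogens act, had 22.9%, 23.0%, 4.24% and 2.35% (difference 17.82, SE 2.64, adjusted p 0.041). Its excess lay inside the gene: within 2 kb of the start the order was reversed, at 18.4% and 39.4% in excitatory against 57.8% and 44.6% in inhibitory libraries, and with the gene-end window the difference was -14.55.

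Htr2b (chr1:86097546-86116231) had 23.0%, 25.6%, 4.13% and 5.03% (difference 17.77, SE 2.57, adjusted p 0.040), and because it lies within Psmd1 the peaks cannot be assigned to 1 of these genes. Htr4, a Gs-coupled serotonin receptor, had 17.8%, 19.99%, 3.55% and 1.75% (difference 13.52, SE 1.97, adjusted p 0.041). Chrm2 (chr6:36387991-36528638), a Gi-coupled muscarinic receptor that acts as an autoreceptor on cholinergic terminals, had 14.6%, 19.8%, 2.996% and 1.47% (difference 12.02, SE 2.03, adjusted p 0.046). At each of these 3 the excitatory level was several times the inhibitory one. The lowest differences after Chrm4 were those of Drd4, with 15.6%, 21.5%, 26.8% and 14.4% (-5.20, adjusted p 0.45), and Adrb1, with 13%, 31.3%, 21.5% and 23.3% (-2.46, adjusted p 0.82). At these 2 genes the excitatory and inhibitory libraries overlapped.

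Both excitatory libraries were above both inhibitory ones for H3K4me1 at 23 receptor genes and below both at Chrm4 alone, against 39.3% and 15.3% of all genes. After merging the peaks of the 4 libraries into regions, 158 of 680 regions in the receptor windows (23.2%) had a peak in both excitatory libraries only, against 13% genome-wide, and 4 (0.588%, against 2.84%) in both inhibitory libraries only. Chrm3, the longest of the genes and a Gq-coupled muscarinic receptor, held 47 of the 158. The excitatory lists held 321846 and 262776 H3K4me1 peaks, which covered 218 and 257 Mb. The inhibitory lists held 209223 and 139982 peaks, which covered 188 and 163 Mb. The part of that in these counts was not tested. The 7 calls were 4 without excitatory replicate 2 and 0 without any of the other 3 libraries. With lists cut to an equal number of strongest peaks none was called, and 12 genes rather than 23 had the excitatory libraries on top.

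**Figure D4:**
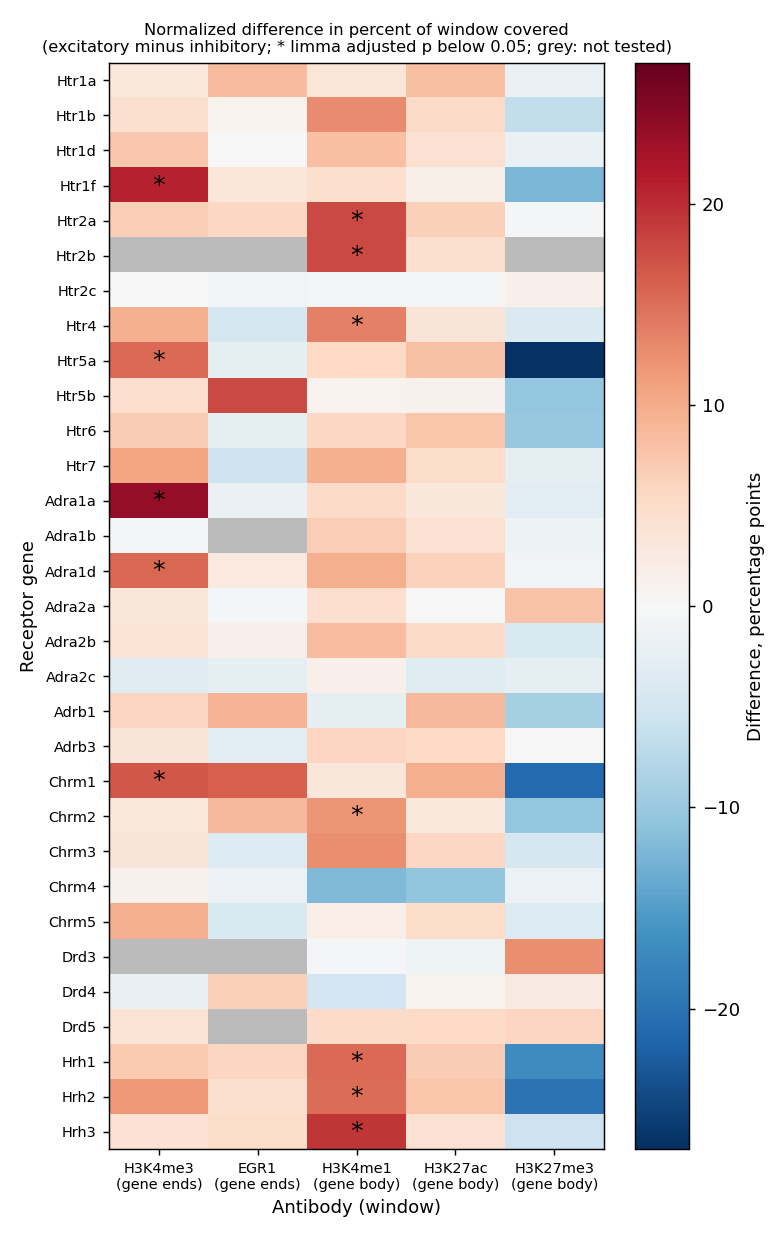
Normalized difference between excitatory and inhibitory libraries (colour, percentage points; red higher in excitatory, blue higher in inhibitory) for each receptor gene (rows) and antibody (columns). Asterisks mark limma adjusted p under 0.05 and grey cells were not tested. The 5 H3K4me3 and 7 H3K4me1 calls are red, Chrm4 is blue for H3K4me1 and H3K27ac, and H3K27me3 is mostly blue.

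EGR1 at the gene ends was not called at any of the 27 receptor genes tested, or at any of 14310 genes (0%), by limma. At an unadjusted p under 0.05 there were 9 receptor genes and 14.7% of all genes. The difference was above 0 at 15 receptor genes and 44.5% of all genes and below 0 at 12 receptor genes, with a median of 0.92 points against -0.43 over all genes. Both excitatory libraries were above both inhibitory ones at 15 and below both at none, orders that held for 47.4% and 6.04% of all genes tested. The excitatory lists held 93858 and 98534 EGR1 peaks and the inhibitory ones 49899 and 62412.

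A peak was present in both excitatory libraries at 27 of the 31 genes and in both inhibitory ones, and so in all 4, at 24, against 63.4%, 57.4% and 56.1% of all genes. Htr5b, a rodent serotonin receptor of the same subfamily as Htr5a, had 26.9%, 25.4%, 4.77% and 4.85% (difference 17.79, SE 1.92, adjusted p 0.11). Chrm1 had 27.7%, 32.6%, 10.7% and 9.82% (difference 16.07, SE 2.46, adjusted p 0.11), with its strongest peak at the gene end in all 4 libraries. Adrb1 had 17.1%, 21.2%, 7.18% and 7.08% (difference 9.22, SE 2.10, adjusted p 0.14), from a peak just before the start in all 4 libraries that was 1201 and 1493 bp wide in excitatory and 505 and 498 bp in inhibitory libraries. In these 3 genes the types were well separated. With the gene and 5 kb on each side as the window, Htr5b and Adrb1 were called, as were 2.63% of all genes.

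The lowest EGR1 differences were those of Htr7, with 11.4%, 11.2%, 16.9% and 11.1% (-5.63, adjusted p 0.45), Htr4, with 12.6%, 2.82%, 8.97% and 10.5% (-4.53, adjusted p 0.57), and Chrm5, with 3.35%, 8.26%, 6.61% and 8.25% (-4.14, adjusted p 0.43). Levels of the types overlapped in all of these. At Htr5a the EGR1 peak over the start was present in all 4 libraries (18.4%, 20.9%, 16.1% and 21.4%), unlike its H3K27me3. EGR1 was not tested at Htr2b, Adra1b, Drd3 and Drd5, where fewer than 2 libraries had a peak at the gene ends. Within 2 kb of the annotated start of Htr2b, EGR1 levels were 9.12%, 9.05%, 0% and 0%. Around the second annotated start of Adra1b they were 22.5%, 28.0%, 9.72% and 23.7%.

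Most EGR1 peaks of the receptor genes with an annotated start lay more than 2 kb from the outermost one. The genes and 5 kb on each side held 148, 150, 72 and 86 EGR1 peaks. Among those of the 25 genes with an annotated start, 27.6% and 26.2% lay within 2 kb of the outermost one in excitatory libraries. In inhibitory libraries these shares were 33.9% and 39.7%. The share over all genes was not computed. The other peaks may lie inside the gene, in its flanks or at another annotated start. Within 2 kb of the start of Hrh1 at position 114458522, EGR1 levels were 28.9%, 32.8%, 5.80% and 0%. Chrm3 held 34 and 33 EGR1 peaks in excitatory against 10 and 10 in inhibitory libraries, Hrh1 11 and 14 against 6 and 3, and Htr4 10 and 11 against 2 and 4. At Hrh1 the strongest excitatory peak lay 27644 and 27640 bases inside the gene (chr6:114425127-114425851, fold enrichment 9.05, and chr6:114425108-114426115, 6.97), while the strongest inhibitory ones lay at its start, with summits 56 bases after it and -343 bases from it. At Chrm2 it lay 50059 and 50068 bases inside (chr6:36437751-36438320, fold 9.91, and chr6:36437704-36438774, 7.07). Of 212 merged EGR1 regions, 46 (21.7%) had a peak in both excitatory libraries only, which is close to the 20.9% found genome-wide.

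**Figure D5:**
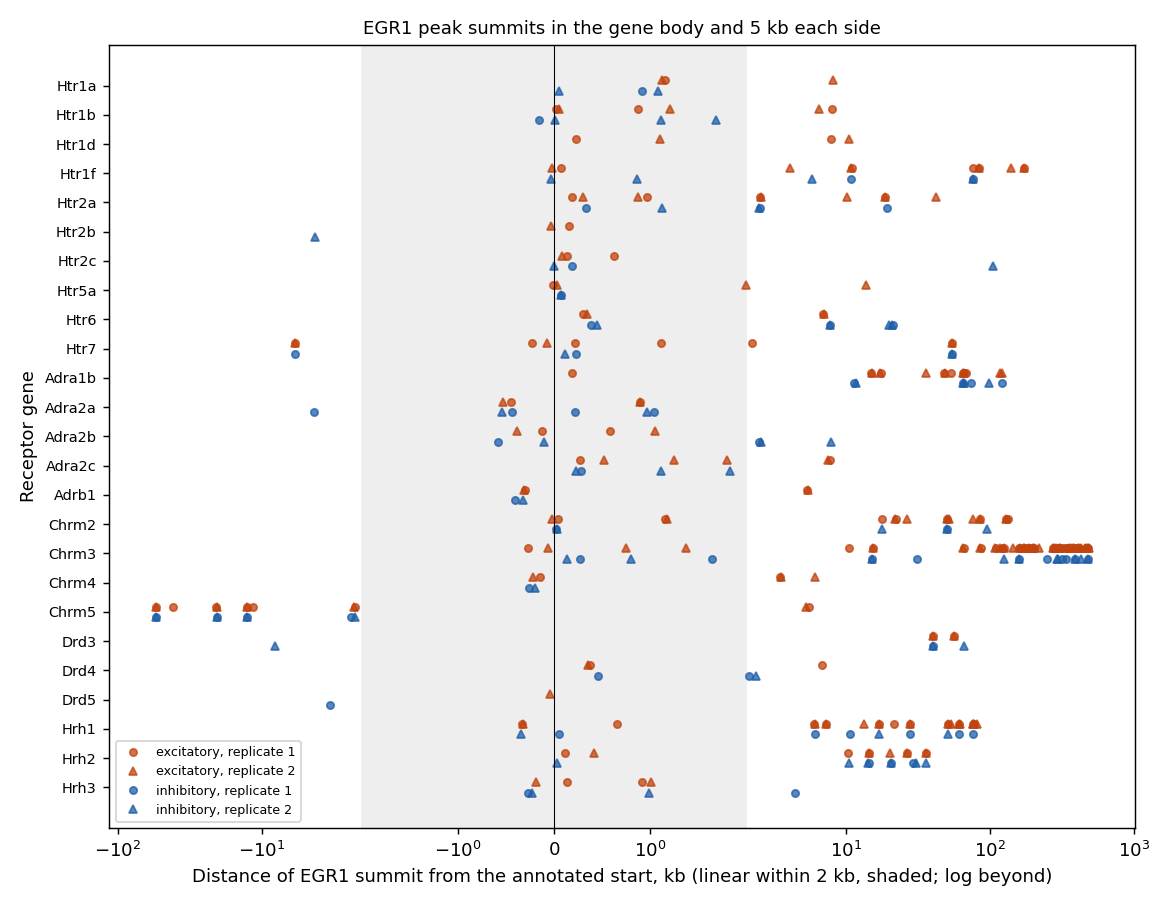
Position of every EGR1 peak summit in the gene and 5 kb on each side, for the 25 receptor genes with an annotated start (rows). The x axis gives the distance from the outermost annotated start in kb, linear within the shaded 2 kb and logarithmic beyond. Circles and triangles are replicates 1 and 2 of each type. Chrm3 has 34 and 33 summits in excitatory and 10 and 10 in inhibitory libraries, most of them far inside the gene.

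Other genes of these pathways were taken from 2 lists. Of 21 genes for synthesis, transport and breakdown of the transmitters, 18 were tested for H3K4me3 and 2 were called, against 3.02% of all genes. Hnmt, which methylates histamine, was called higher in excitatory libraries, with 22.8%, 24.9%, 10.01% and 7.45% (difference 14.29, adjusted p 0.030). Hdc, which makes histamine, was called higher in the inhibitory ones, with 0%, 8.22%, 20.7% and 21.2% (difference -18.09, adjusted p 0.022). Their median difference was 1.34 points for H3K4me3, 0.22 for H3K27ac and 1.80 for H3K27me3, against 4.58, 4.90 and -3.32 for the receptor genes. Of 32 genes for G protein subunits and their effectors, 31 were tested for H3K4me3 and none was called. For EGR1 this list had 17 of 30 differences above 0 and a median of 0.93, close to the 15 of 27 and 0.92 of the receptor genes. For H3K4me1, 2 of the 32 were called higher in excitatory libraries, against 2.53% of all genes: the adenylyl cyclase Adcy2 (18.1%, 22.3%, 2.14% and 1.42%; difference 16.05, adjusted p 0.040) and the phospholipase Plcb2 (26.4%, 34.2%, 15.01% and 8.66%; difference 16.92, adjusted p 0.046). For EGR1, H3K27ac and H3K27me3 no gene at all was called (0%), and so none of either list. The difference between these lists and the receptor genes was not tested.

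Direction was also counted by gene length. Among receptor genes of at least 50 kb, 10 of 11 differences were above 0 for H3K4me3, 10 of 12 for H3K27ac and 2 of 12 for H3K27me3. Among shorter ones these were 16 of 18, 17 of 19 and 3 of 18. For EGR1, 4 of 10 long receptor genes (median -1.29) and 11 of 17 shorter ones (median 1.47) were above 0. Over all genes tested of at least 50 kb the shares above 0 were 51.4% for H3K4me3, 49.4% for H3K27ac, 52.6% for H3K27me3 and 46.1% for EGR1. Windows of 7 receptor genes (Htr4, Htr5b, Htr6, Adrb3, Chrm4, Chrm5 and Drd4) also hold an end of another gene, so part of their levels may come from it; Chrm5 shares its strongest H3K4me3 peak, at -12861 to -11765 bases from its listed start, with the end of Aven.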

How the data were processed

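The deposited files are peak lists, 1 per library. Per the submitters' processing notes the authors used MACS2 2.2.5 and build mm10, together with cutadapt 1.18 with Trim Galore 0.5.0, Bowtie2 2.3.5, and SAMtools 1.12 with Picard 2.25.0, the notes giving no role or order. Each deposited peak carries the authors' fold enrichment (a ratio), −log10 p, −log10 q and an integer score; H3K4me3, H3K27ac and EGR1 lists are narrow peaks and H3K4me1 and H3K27me3 lists broad ones. Read depth is unknown. From the peaks, the percent of each gene's window under peaks was computed for 21631 RefSeq genes, quantile-normalized over the 4 libraries of an antibody, and tested with limma 3.58.1 in R 4.3.3 (trended prior) on genes with a covered base in at least 2 libraries, with Benjamini-Hochberg adjustment. With 2 libraries against 2 an exact test cannot go below 0.333. The script was tested on simulated data. All deposited peaks were used. A search for a motif in promoters is not reported here. Genes given with library values are those called and the 3 with the largest difference in each direction. The members and lists were chosen with earlier results of these data known. Replicate numbers did not pair the libraries (correlation of deviations from -0.017 to 0.059). Alternatives changed normalization, peak threshold, peak number, window, block and library set.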

Additional observations from a re-analysis of the deposited data

How the results depend on the processing

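The 36 named differences were recomputed under the alternatives, giving 314 values, of which 216 kept direction and side of the threshold, 70 kept direction but no longer passed, 12 newly passed and 16 changed sign; the cause was not tested. Receptor genes called: without quantile normalization 0 for H3K4me3 and 10 for H3K4me1; with −log10 p of at least 3, 0 for H3K4me1, where 6 could be tested, and no receptor gene could be tested for H3K27me3; with the same number of strongest peaks 0 for H3K4me1; with the other window 1 for H3K4me3 (Htr5a), 2 for EGR1 and 0 for H3K4me1; around starts only, 2 for H3K4me3. Leaving out 1 library gave 0 to 7 for H3K4me3, 0 to 4 for H3K4me1, 0 to 13 for H3K27ac, and 0 for EGR1 and H3K27me3; these fits leave a lone library assumed to vary like the others. The libraries share only a number, and with the replicate block 9, 0, 0, 15 and 0 receptor genes were called for H3K4me3, EGR1, H3K4me1, H3K27ac and H3K27me3. Over all genes, H3K4me3 calls went from 474 to 0 without normalization, 111 with the other window, 1221 with the block, and 0 to 747 leaving out a library. H3K4me1 calls went from 732 to 1211 without normalization, 219 with the other window, 0 with stricter or equal peak numbers or the block, and 0 to 507 leaving out a library. H3K27ac calls went from 0 to 1329 with the block and to 0 to 925 leaving out a library, and EGR1 calls to 432 with the other window. At −log10 p of at least 3, genes with a peak in both libraries of a type were 1 (excitatory) and 3 (inhibitory) for H3K4me1, 10 (inhibitory) for H3K27ac, and 0 in both types for H3K27me3; 12 genes had both excitatory libraries on top for H3K4me1 with equal peak numbers, and both marks at one gene end were left at 3 and 13 genes with H3K27me3 peaks of −log10 p of at least 2.

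Signs changed for H3K4me3 at Adra1b (1.17 without normalization, 1.84 with stricter peaks, 1.16 with the other window, -2.55 to 1.85 leaving out 1 library) and Drd4 (0.56 with stricter peaks, -7.62 to 3.58 leaving out 1 library). For EGR1 they changed at Htr4 (0.85 with the other window, -9.64 to 0.47 leaving out 1 library) and Chrm5 (0.98 with the other window). For H3K4me1 they changed at Htr2a (-14.55) and Drd4 (8.72) with the other window and at Adrb1 (-10.77 to 6.42 leaving out 1 library). For H3K27ac they changed at Drd3 (0.25 without normalization, -2.85 to 0.28 leaving out 1 library) and Adra2c (-10.28 to 3.68 leaving out 1 library), and for H3K27me3 at Drd5 (-5.60 with the other window).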

Other observations

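Values outside the comparisons of the report concern the starts alone. Within 2 kb of an annotated start, both excitatory libraries had an H3K27ac peak at 17 of 25 receptor genes and both inhibitory libraries at 6, whereas over 17274 genes the shares were 54.8% and 55.6%. For EGR1 the counts were 22 and 17 of 25, against 61.4% and 57%. The 2 receptor genes without H3K4me3 there in both excitatory libraries were Chrm5 and Drd3, whose listed starts lie inside the annotated gene. That of Htr2b also lies inside its gene, and both excitatory libraries had H3K4me3 there. Among merged H3K27me3 regions in the receptor windows, 72 of 660 (10.9%) had a peak in both inhibitory libraries only and 14 (2.12%) in both excitatory libraries only, against 6.65% and 3.97% genome-wide, and Htr1f and Chrm3 held 15 and 13 of the 72.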
